A study of Mus musculus with 6 samples.

Results

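The genes described here encode the machinery that brings secretory proteins into the endoplasmic reticulum (ER) and carries them between the ER and the Golgi. The list of 58 genes was set by function, by gene symbol, in 4 steps: signal recognition (8 genes), the translocon with its signal peptidase (17), the COPII and COPI coats (11 and 9), and cargo receptors with the tethers and SNAREs beside them (13). Each gene was read from the probe set with its symbol alone that had the highest mean over the 6 arrays, which gave values for 57 of the 58 genes, out of 22180 genes named in this way. Srp54a, the signal-binding subunit of the recognition particle, shares its probe sets with near-identical copies and was given no value. All 6 mice carried the knockout allele Creb3l3tm1.1Sad/J and so lack CREB-H, a transcription factor held in the ER membrane until it is cleaved. They were 8 weeks old, ate a normal diet and received a liver-targeting adeno-associated virus (AAV) into the abdomen. In 3 mice the virus carried CREB-H-ΔTC, the active form of the factor, and in 3 it carried GFP, and livers were taken 2 weeks later. No source used here gives the promoter that drives either insert.

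A ribosome that starts to make a secretory protein is caught by the signal recognition particle and docked at the SRP receptor. The chain then threads through the Sec61 channel, helped by TRAM, the TRAP complex and Sec62/Sec63, and signal peptidase removes its signal. COPII, which assembles from Sar1, Sec23/Sec24 and Sec13/Sec31, buds cargo forward from the ER, while COPI, the coatomer recruited by Arf proteins, returns escaped ER proteins and receptors from the Golgi. In the liver this route carries albumin, clotting factors and apolipoproteins. Relatives of CREB-H in the CREB3 family and the stress factors XBP1 and ATF6 are known activators of many of these genes.

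The arrays give a log2 signal for each of 41345 probe sets. Array medians lay between 4.98 and 5.01. Their number, 3 per group, limits how closely a difference can be known, and as the labels do not tie the replicates to cages or litters, p-values measure the spread between these mice alone. The albumin gene Alb read 13.76 to 13.87 on all arrays, in keeping with the liver label. Creb3l3 itself (probe set 17243183) read 6.55, 5.93 and 6.40 with GFP and 6.73, 7.25 and 7.58 with CREB-H. Every CREB-H array lay above every GFP array, as in 6.25% of all genes, and that direction fits the labels. The GFP arrays, though from knockout livers, also read above the array medians for this probe set. The log2 difference was 0.89 (SE 0.25, limma adjusted p = 0.647). Which part of the transcript its probes cover is unknown here. Replicate 3 of each group carried signal from Y-linked genes (mean of Kdm5d, Eif2s3y and Uty 7.83 and 7.67, against 3.15 to 3.39 on the other 4 arrays), and these are called the Y-signal arrays below. Differences are CREB-H minus GFP on the log2 scale throughout, with the SE of the limma fit.

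No member had a limma p under 0.05 once adjusted (Benjamini-Hochberg) over the whole array; 2 of 41345 probe sets did (0.00484%). The lowest adjusted p of a member was 0.555, for Tram2. At an unadjusted limma p under 0.05, 4 of 57 members had a positive difference, beside 3.29% of all genes, and 0 had a negative one, beside 2.43%. Those 4 were Tram2, Tram1 and Spcs3 of the translocon step and the cargo receptor Lman1. In 6 members (10.5%) all CREB-H arrays lay above all GFP arrays, beside 6.25% of all genes, and in 2 (3.51%) all lay below, beside 6.01%. The 6 were the same 4 genes with Copb1 and Sec11a, and the 2 were Srp19 and Sec61g. With CREB-H replicate 2 left out, 7 members had a positive difference at that unadjusted p, beside 2.94% of all genes in that fit. With GFP replicate 3 left out, 6 had one, beside 4.12% of all genes, and 23 lay wholly above, beside 14.3% in that smaller comparison. The 7 and the 23 were the highest such counts with 1 array left out. The first count also fell below 4 in such a fit, and the full ranges are given at the end. The sizes were small: 45 of 57 members differed by less than 0.25, and 1 member, Tram2, by more than 0.5. The members' signals were mostly high: 50 of 57 ranked above the 80th percentile of all probe sets by mean signal. Among the 4220 genes at or above the members' lower quartile of mean signal, 4.62% had an unadjusted p under 0.05 with a positive difference and 8.01% lay wholly above.

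Across the steps, the median difference went from 0.03 for signal recognition (4 of 7 positive) to 0.08 for the translocon (11 of 17), 0.11 for cargo receptors (9 of 13), 0.13 for COPII (7 of 11) and 0.19 for COPI (8 of 9). Over both coats it was 0.16 (15 of 20 positive). All members together had a median of 0.08 with 39 of 57 positive, beside 0.003 and 50.8% positive over all genes. Leaving out 1 array moved the median of all members between 0.03 when GFP replicate 1 was dropped and 0.17 when GFP replicate 3 was. The COPI median was 0.09 when CREB-H replicate 3 or GFP replicate 1 was left out and 0.32 when CREB-H replicate 2 was, and that of signal recognition lay between -0.05 and -0.02 in 4 of the 6 fits. In the same 6 fits the translocon median ran from 0.03 (GFP replicate 2 left out) to 0.15 (GFP replicate 3), that of COPII from 0.02 (CREB-H replicate 3) to 0.22 (GFP replicate 3) and that of cargo receptors from 0.05 (GFP replicate 1) to 0.21 (GFP replicate 3). The order of the steps was not tested, since the members of a step share their arrays.

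**Figure D1:**
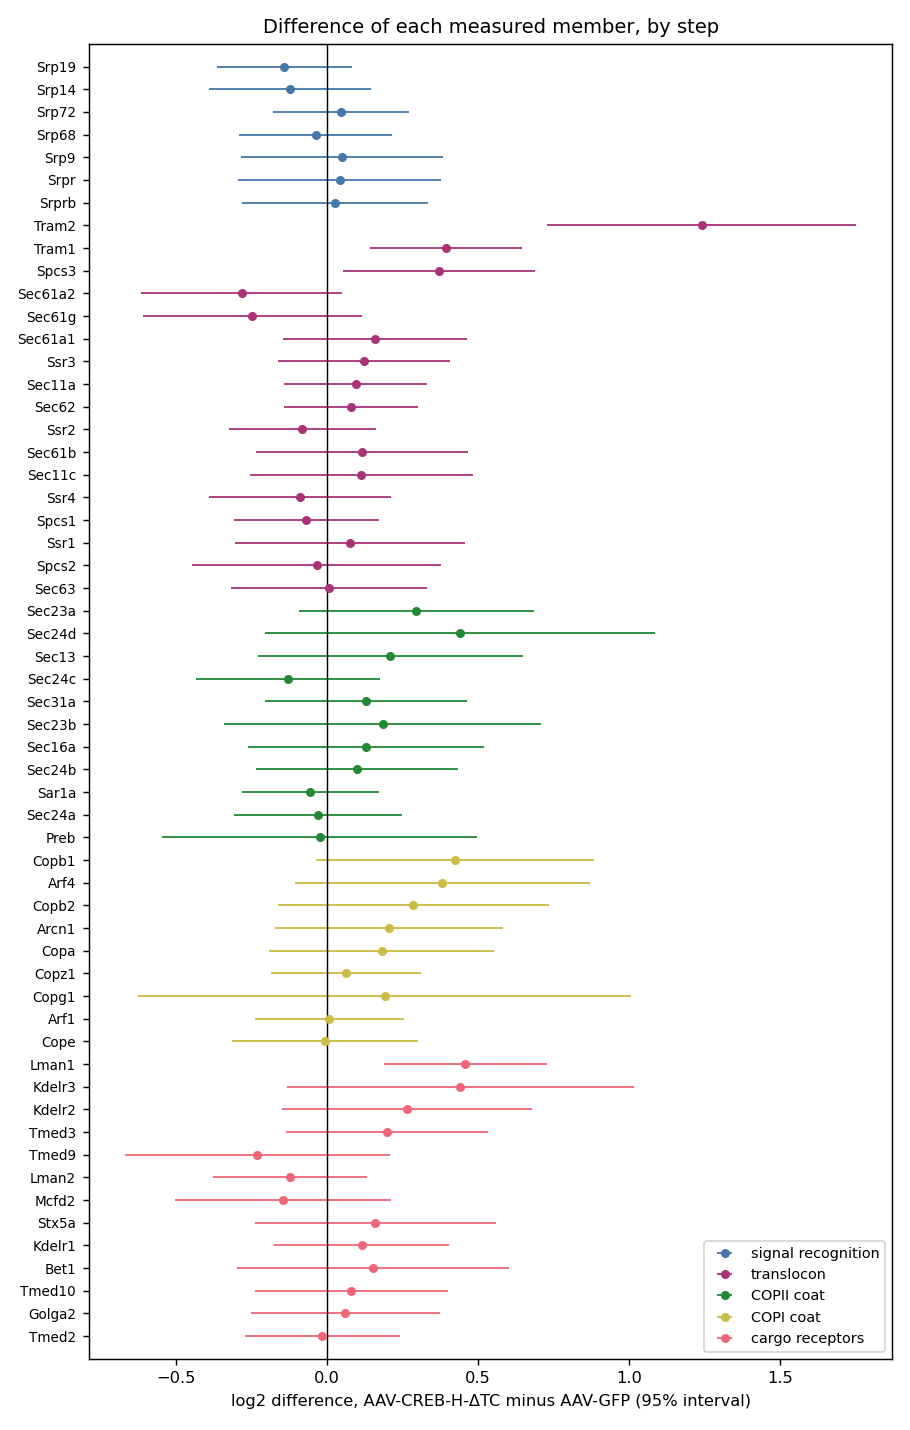
Log2 difference, CREB-H minus GFP, for the 57 measured members (points) with the 95% interval of the limma fit (bars), coloured by step and ordered by unadjusted p within each. Tram2 stands at 1.24, and the other members lie between -0.28 and 0.46.

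The bases before the start sites are shown for Tram2, the member with the greatest difference, and for 3 members whose differences were 0.42 to 0.44 and whose promoters hold the same 7 bases. Sequences are from RefSeq, build GRCm38.p6, and were found by symbol for 47 of the 58 listed genes; the 250 bases before the start were searched on both strands. Capitals mark TGACGT, the core of the cyclic AMP response element (CRE), TGACGTG, its extension in the element of the unfolded protein response, and CCACG, the factor-binding box of the ER stress element (ERSE), or their complements. TGACGTG contains TGACGT, and followed by G it also overlaps CCACG on the other strand, as in TGACGTGG and its complement CCACGTCA.
Tram2 promoter, chr1:21079226-21079475, minus strand: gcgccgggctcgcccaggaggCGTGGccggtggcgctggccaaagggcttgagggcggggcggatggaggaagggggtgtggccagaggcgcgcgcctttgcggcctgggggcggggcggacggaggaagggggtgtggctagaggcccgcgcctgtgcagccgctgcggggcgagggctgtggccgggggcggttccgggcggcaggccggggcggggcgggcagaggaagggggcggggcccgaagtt
Copb1 promoter, chr7:114254681-114254930, minus strand: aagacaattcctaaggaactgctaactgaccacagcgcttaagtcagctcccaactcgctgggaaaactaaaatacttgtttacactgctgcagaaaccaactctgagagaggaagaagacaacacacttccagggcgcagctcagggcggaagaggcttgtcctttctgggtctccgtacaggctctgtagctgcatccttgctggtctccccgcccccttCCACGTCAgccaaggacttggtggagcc
Sec24d promoter, chr3:123267246-123267495, plus strand: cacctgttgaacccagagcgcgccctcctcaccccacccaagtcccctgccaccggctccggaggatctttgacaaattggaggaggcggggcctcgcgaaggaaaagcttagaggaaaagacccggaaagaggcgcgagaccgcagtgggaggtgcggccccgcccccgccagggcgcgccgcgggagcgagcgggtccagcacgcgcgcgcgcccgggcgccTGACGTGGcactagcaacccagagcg
Kdelr3 promoter, chr15:79516158-79516407, plus strand: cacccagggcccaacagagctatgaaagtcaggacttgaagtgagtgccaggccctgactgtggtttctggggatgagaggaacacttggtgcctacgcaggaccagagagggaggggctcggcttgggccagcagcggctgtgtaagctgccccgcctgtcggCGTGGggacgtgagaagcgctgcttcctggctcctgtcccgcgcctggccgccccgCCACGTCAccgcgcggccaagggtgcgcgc
In Copb1, Sec24d and Kdelr3 the 7 bases began 27, 26 and 29 bases before the start, on the gene's strand in Sec24d and on the other strand in Copb1 and Kdelr3. Tram2 held CCACG, on the other strand and 229 bases before the start, and neither longer motif in this window. TGACGTG was found in 5 of 47 members (10.6%), beside 1.85% of 27025 genes in the table and 2.99% of the 9165 genes with at least 13 CpG, the members' lower quartile (their median was 17 CpG, against 6 over all genes). The other 2 members were Srpr and Arf1, shown here because they differed least. Their 7 bases began 13 and 84 bases before the start, on the gene's strand. A further Arf1 promoter, chr11:59228268-59228517, held none of the marked motifs.
Srpr window, chr9:35211170-35211202, plus strand: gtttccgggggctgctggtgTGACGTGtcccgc
Arf1 window, chr11:59228220-59228266, minus strand: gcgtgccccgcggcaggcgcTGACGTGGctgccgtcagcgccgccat
Srpr read 10.65, 10.60 and 11.02 with GFP and 10.76, 10.75 and 10.89 with CREB-H, a difference of 0.04 (SE 0.14). Arf1 differed by 0.01 (SE 0.10). The 5 members with TGACGTG therefore spanned differences of 0.01 to 0.44, with a median of 0.42, against 0.08 for the 41 measured members whose windows lack it. Without CREB-H replicate 3 these medians were 0.13 and 0.02, and the contrast was not tested. Tram1, Spcs3 and Lman1, each with an unadjusted limma p under 0.05, were among the members with no promoter found. They enter neither median. TGACGT was held by 12 of 47 members (25.5%), beside 7.29% of all genes and 12.6% of the CpG-rich ones. The median difference was 0.06 for the 11 with a value and 0.08 for the 35 without, an order that turned in 3 of the 6 fits with 1 array left out. CCACG was held by 30 of 47 (63.8%), beside 31.0% and 54.2%. The whole ERSE, CCAAT and CCACG set 9 bases apart, was in none of the 47 windows, beside 0.13% of all genes and 7 of 14 ER chaperone and stress genes. These matches describe letters in the window.

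The recognition step showed the smallest differences. Srp19, a subunit that helps assemble the particle, read 7.03, 6.97 and 6.95 with GFP and 6.78, 6.88 and 6.86 with CREB-H. All 3 CREB-H arrays lay below the GFP arrays, by a gap of 0.07, and the difference was -0.14 (SE 0.09, limma adjusted p = 0.84). Srp14, which with Srp9 forms the domain that pauses translation, read 7.29, 7.54 and 7.49 with GFP and 7.35, 7.22 and 7.38 with CREB-H. Its groups overlapped, with a difference of -0.12 (SE 0.11). Srp72, which holds the particle's core together with Srp68, read 10.58 to 10.69 with GFP and 10.64 to 10.72 with CREB-H, a difference of 0.05 (SE 0.09) whose 95% interval ran from -0.18 to 0.27. The other 4 members, including the receptor subunits Srpr and Srprb, differed by -0.04 to 0.05 and overlapped.

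Both TRAM genes led the translocon step. TRAM proteins sit beside the Sec61 channel and help some chains enter it, and TRAM2 is known for a part in collagen synthesis. Tram2 (probe set 17221662) read 7.32, 7.32 and 7.17 with GFP and 8.54, 8.06 and 8.93 with CREB-H. Every CREB-H array stood at least 0.74 above every GFP array, and the highest and the lowest of the 6 values were both on Y-signal arrays. The means were 7.27 ± 0.09 and 8.51 ± 0.43 (SD, n = 3 per group), a difference of 1.24 (SE 0.21) or 2.36-fold, with a 95% interval of 0.73 to 1.75 on the log2 scale. Its unadjusted limma p was 0.000746 and its adjusted p 0.555. The difference was 1.03 to 1.46 with any 1 array left out and 0.98 on the 4 arrays with no Y signal. Tram1 (probe set 17221347), the more studied member of the family, read 10.86, 10.90 and 11.08 with GFP and 11.28, 11.36 and 11.38 with CREB-H. Here too the groups stood apart, by 0.20, with a difference of 0.39 (SE 0.11, limma adjusted p = 0.629) that kept between 0.35 and 0.46 with any 1 array left out.

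Signal peptidase gave the third such gene. Spcs3 (probe set 17509379), an accessory subunit needed for cleavage, read 8.92, 9.09 and 9.17 with GFP and 9.51, 9.56 and 9.22 with CREB-H. The groups did not overlap, although CREB-H replicate 3 lay 0.05 above the highest GFP array. The difference was 0.37 (SE 0.13, limma adjusted p = 0.693). Sec11a, a catalytic subunit, read 8.79 to 8.98 with GFP against 8.99 to 9.02 with CREB-H; the gap was 0.02 and the difference 0.10 (SE 0.10). The alternative catalytic subunit Sec11c differed by 0.11 (SE 0.16, with overlap), Spcs1 by -0.07 and Spcs2 by -0.03. Each estimate was smaller in size than the 0.37 of Spcs3, but no contrast between the subunits was tested.

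The Sec61 channel itself showed no shared direction. Sec61a1, the pore-forming subunit of most cells, read 10.09, 10.20 and 10.48 with GFP and 10.40, 10.48 and 10.36 with CREB-H. The GFP Y-signal array was level with the highest CREB-H array, and the difference was 0.16 (SE 0.13; 0.07 without GFP replicate 1 and 0.27 without GFP replicate 3). Its paralog Sec61a2 read 7.07, 7.09 and 7.26 with GFP and 6.72, 7.11 and 6.74 with CREB-H, a difference of -0.28 (SE 0.14) with CREB-H replicate 2 inside the GFP range. The small subunit Sec61g read 8.21, 8.17 and 8.23 against 8.10, 8.13 and 7.63. Its CREB-H arrays all lay below, by 0.04, and the difference of -0.25 (SE 0.15) became -0.09 without CREB-H replicate 3. Sec61b, the other small subunit, was dim at 4.59, 4.32 and 4.56 against 4.37, 4.81 and 4.64, below the median of all probe sets, and its difference of 0.12 (SE 0.15) may be understated; its further probe set read 2.91 to 3.06. Sec62 and Sec63 differed by 0.08 and 0.01 and the 4 TRAP subunits Ssr1 to Ssr4 by -0.09 to 0.12, all with overlapping groups.

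**Figure D2:**
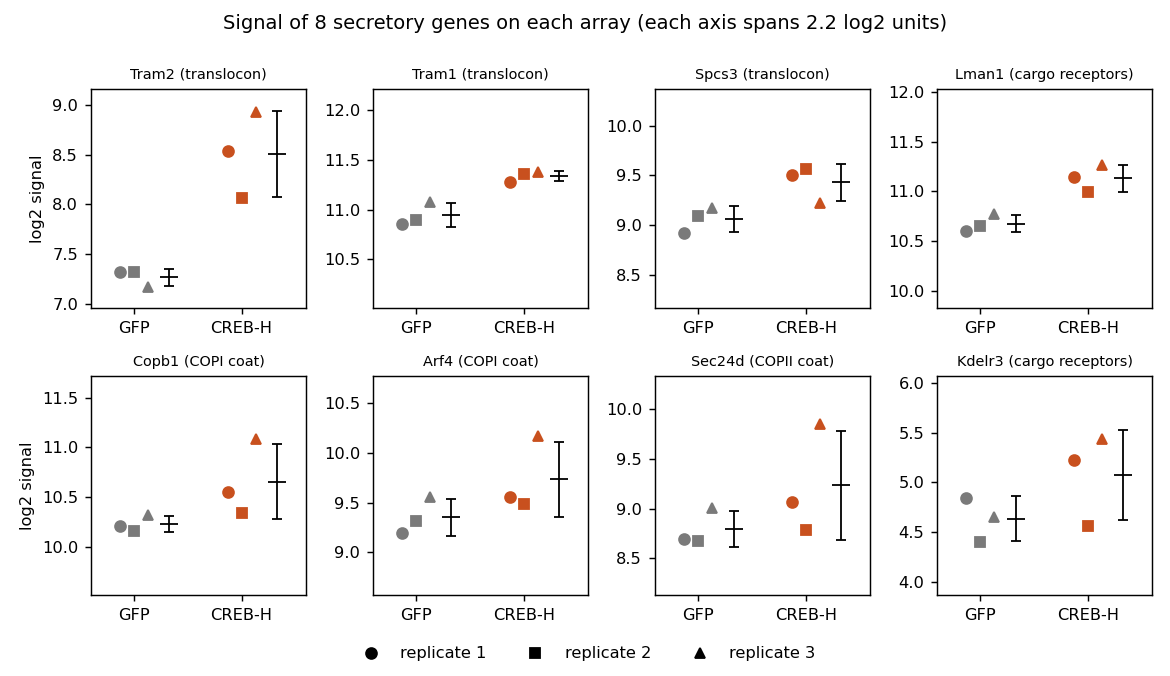
Log2 signal on each array for 8 members, with circles, squares and triangles for replicates 1, 2 and 3 and the group mean ± SD (n = 3) beside them. The groups stand apart in Tram2, Tram1, Spcs3, Lman1 and Copb1 and overlap in Arf4, Sec24d and Kdelr3, and the triangle is the highest CREB-H value in every panel but Spcs3.

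No COPII gene of the 11 separated the groups, beside 6.25% of all genes that lay wholly above and 6.01% wholly below. The differences lay between -0.13 and 0.44. Sec24d, a cargo-binding subunit known for collagen export, read 8.70, 8.68 and 9.01 with GFP and 9.07, 8.79 and 9.85 with CREB-H. The CREB-H Y-signal array stood above all the others, and the difference of 0.44 (SE 0.27, limma adjusted p = 0.821) was 0.13 without it and 0.66 without CREB-H replicate 2. Sec23a, the GTPase activator of the inner coat and a known target of the CREB-H relative CREB3L2 in cartilage, read 10.48, 10.45 and 10.30 with GFP and 10.60, 10.47 and 11.04 with CREB-H. Again 1 array carried much of the difference, which was 0.30 (SE 0.16) with CREB-H replicate 3 and 0.13 without it. Sec13 of the outer coat read 6.97, 7.01 and 7.23 against 7.17, 7.00 and 7.65, a difference of 0.21 (SE 0.18) that came to 0.02 without the same array and 0.35 without CREB-H replicate 2.

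Other COPII genes differed less. Sec31a, the partner of Sec13, read 10.06, 10.21 and 10.44 against 10.35, 10.23 and 10.53, a difference of 0.13 (SE 0.14; 0.04 without GFP replicate 1 and 0.23 without GFP replicate 3). Sar1a, the GTPase that starts the coat, read 9.21 to 9.28 with GFP and 9.14 to 9.27 with CREB-H, a difference of -0.05 (SE 0.10) with a 95% interval of -0.28 to 0.17. Among the other Sec24 forms, Sec24a, Sec24b and Sec24c differed by -0.03, 0.10 and -0.13. Sec16a, which marks exit sites, and Preb, the exchange factor for Sar1, differed by 0.13 and -0.02. CREB-H replicate 3 was the highest CREB-H array in 10 of the 11 COPII genes and the highest of all 6 arrays in 7. The share of all genes with that order was not computed.

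The COPI genes had the highest median of the steps, and CREB-H replicate 3 was the highest of the 6 arrays in 6 of 9. Copb1, the coatomer subunit beta-COP (probe set 17495271), read 10.21, 10.16 and 10.32 with GFP and 10.55, 10.34 and 11.08 with CREB-H. The groups stood apart by 0.02, and the difference was 0.42 (SE 0.19, limma adjusted p = 0.751), and 0.21 without CREB-H replicate 3. Copb2, beta-prime-COP, read 10.04, 10.06 and 10.32 against 10.30, 10.16 and 10.82, a difference of 0.29 (SE 0.19; 0.09 without that array). Arf4, a small GTPase of the early Golgi, read 9.19, 9.31 and 9.55 against 9.55, 9.48 and 10.17, with an overlap of the groups and a difference of 0.38 (SE 0.21; 0.17 without that array). The further Arf4 probe set, dim at 4.26 or less, differed by -0.10 (SE 0.10).

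Arcn1 (delta-COP) and Copa (alpha-COP) differed by 0.21 and 0.18, each with SE 0.16, and came to 0.08 and 0.09 without CREB-H replicate 3 and to 0.32 and 0.30 without CREB-H replicate 2. Copg1 (gamma-COP) spread widely, from 7.02 to 8.27 among the GFP arrays alone, so its difference of 0.19 had an SE of 0.34. Cope (epsilon-COP), Copz1 (zeta-COP) and Arf1, the GTPase that recruits coatomer, differed by -0.01, 0.06 and 0.01, with SEs of 0.13, 0.10 and 0.10. In all 9 COPI genes the Y-signal array was the highest of the GFP arrays, and in 7 it was the highest of the CREB-H arrays. A GFP array was the lowest of the 6 in all 9, replicate 1 in 7 and replicate 2 in 2.

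Between the Y-signal arrays alone, CREB-H minus GFP had a median of 0.15 over the 20 coat genes (15 positive) and -0.14 over the 17 translocon genes (7 positive). It was -0.09 for signal recognition (1 of 7 positive), 0.08 for cargo receptors (7 of 13) and 0.05 over all members (30 of 57). On the other 4 arrays the coat and translocon medians were both 0.13 (16 of 20 and 14 of 17 positive). There, signal recognition had 0.03 (4 of 7 positive), cargo receptors 0.13 (10 of 13) and all members 0.13 (44 of 57). Each Y-signal value rests on 1 array per group, and this contrast between coats and translocon was not tested. Among all 57 members the Y-signal array was the highest GFP array in 46. The share of all genes with such array orders was not computed, here or for the coats above. These counts therefore do not set the members apart from other genes. The part of the Y-signal arrays in the step medians was not tested beyond the values without them.

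**Figure D3:**
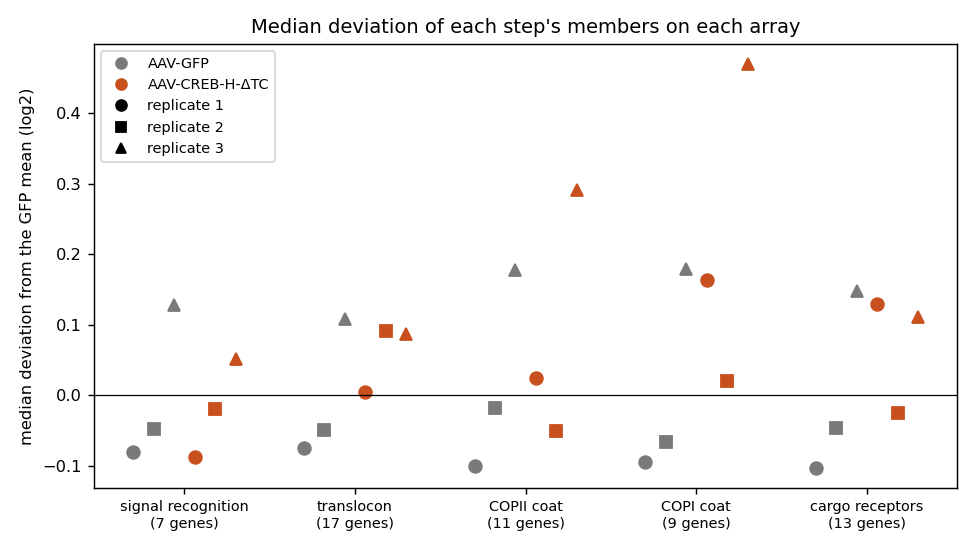
Median over each step's members of the deviation from the member's GFP mean (log2), for each of the 6 arrays (colour for group, shape for replicate). The CREB-H triangle stands at 0.47 for COPI and 0.29 for COPII, the GFP triangle at 0.11 to 0.18 in every step, and the groups overlap in all 5 columns.

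Among cargo receptors, Lman1 stood apart. LMAN1 (ERGIC-53) is a lectin that, with its partner MCFD2, carries clotting factors V and VIII from the ER. Lman1 (probe set 17355092) read 10.60, 10.65 and 10.77 with GFP and 11.14, 10.99 and 11.26 with CREB-H, a gap of 0.23. The means were 10.67 ± 0.09 and 11.13 ± 0.14 (SD, n = 3 per group), a difference of 0.46 (SE 0.11) or 1.37-fold, with an unadjusted limma p of 0.0053 and an adjusted p of 0.623. It was 0.39 to 0.53 with any 1 array left out. The partner gene Mcfd2 read 8.26, 8.33 and 7.90 against 7.85, 8.13 and 8.07, with overlap and a difference of -0.15 (SE 0.15; -0.06 without CREB-H replicate 1 and -0.28 without GFP replicate 3). The related lectin Lman2 differed by -0.12 (SE 0.11; -0.06 without GFP replicate 3).

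The KDEL receptors return ER chaperones from the Golgi. Kdelr3 was dim, at 4.85, 4.40 and 4.65 with GFP and 5.23, 4.56 and 5.43 with CREB-H. CREB-H replicate 2 lay within the GFP values, and the difference of 0.44 (SE 0.24, limma adjusted p = 0.807) was 0.26 without CREB-H replicate 3 and 0.70 without replicate 2. Kdelr2 read 9.51, 9.80 and 10.08 with GFP and 9.91 to 10.26 with CREB-H, a difference of 0.27 (SE 0.17; 0.12 to 0.41 with GFP replicate 1 or 3 left out), and Kdelr1 differed by 0.11 (SE 0.12). Of the p24 proteins, which link cargo to both coats, Tmed10 read 9.95, 9.96 and 10.34 against 10.22, 10.18 and 10.10, a difference of 0.08 (SE 0.13) that was -0.01 over the mean of its 3 probe sets. Tmed2, Tmed3 and Tmed9 differed by -0.02, 0.20 and -0.23, the last being -0.03 to -0.38 with GFP replicate 3 or 2 left out. The Golgi tether Golga2 and the SNAREs Stx5a and Bet1 differed by 0.06, 0.16 and 0.15. All of these overlapped between the groups.

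Related genes were also compared within each array, where a shift of the whole array drops out. In 6 of 11 pairs the log2 ratio stood apart between the groups, with an exact two-sided permutation p of 0.1, the smallest that 3 against 3 arrays allow (0.183 adjusted over the 11 pairs). The pairs were chosen with earlier results known, several hold members described above as apart, and no share over other gene pairs was computed, so the count is a description. Tram2 over Tram1 differed by 0.85, with -3.54, -3.58 and -3.91 on the GFP arrays and -2.74, -3.30 and -2.45 on the CREB-H arrays. Lman2 over Lman1 differed by -0.58, Sec24d over Sec24c by 0.57, Sec61a2 over Sec61a1 by -0.44, Arf4 over Arf1 by 0.37 and Copb2 over Copb1 by -0.14. The ratios of Kdelr2 and Kdelr3 over Kdelr1 differed by 0.15 and 0.33 (exact permutation p = 0.2 each, 0.275 adjusted). Sec24b over Sec24a, Sec23b over Sec23a and Sec11c over Sec11a differed by 0.13, -0.11 and 0.02 (exact permutation p = 0.7, 0.8 and 0.9). Such a ratio compares 2 genes within an array and does not say which of them differs.

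**Figure D4:**
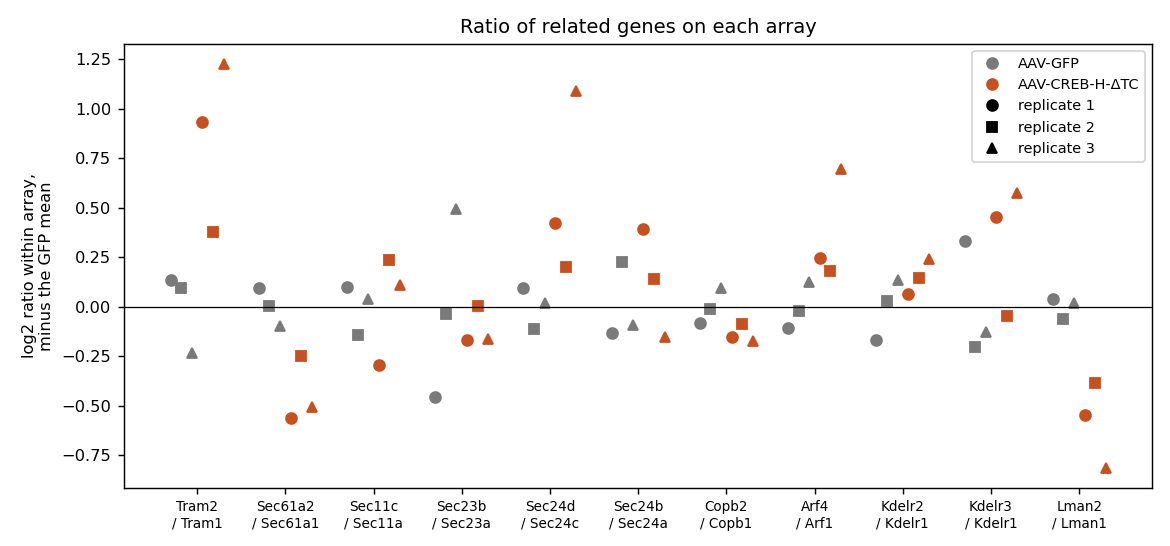
Log2 ratio of 11 pairs of related genes within each array, set against its GFP mean (colour for group, shape for replicate). The CREB-H mean stands at 0.85 for Tram2 over Tram1 and at -0.58 for Lman2 over Lman1, and the CREB-H arrays lie outside the GFP values in both.

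The wider pathway was read from 79 further genes, of which 77 were measured. None passed over all probe sets; at an unadjusted limma p under 0.05, 5 had a positive difference (6.49%, beside 3.29% of all genes) and 1 a negative one (1.30%, beside 2.43%), and the median was 0.07 with 53 of 77 positive. All CREB-H arrays lay above all GFP arrays in 6 of the 77 (7.79%, beside 6.25% of all genes) and below in 3 (3.9%, beside 6.01%). The 6 were Mia3, Ostc, Arf5, Arf3, Rab1b and Rab2a, and the 3 were Tmed5, Tusc3 and Emc2. At the exit sites, 11 of 16 genes were positive with a median of 0.07. Mia3 (TANGO1), which brings collagens and other large cargo to COPII, read 9.93, 9.90 and 10.08 with GFP and 10.69, 10.25 and 10.68 with CREB-H. Its groups stood apart, with a difference of 0.57 (SE 0.15, limma adjusted p = 0.626) that kept between 0.50 and 0.71 with any 1 array left out. Lman2l, a relative of Lman2, differed by -0.41 (SE 0.23; -0.19 without CREB-H replicate 3), and Ktn1 by 0.25 (SE 0.15; 0.11 without it).

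Among 13 further COPI and p24 genes the median was 0.12 (11 positive). Arfgap3, which switches off Arf1 at the Golgi, read 6.29, 6.56 and 7.18 with GFP and 7.89, 6.97 and 9.42 with CREB-H, a difference of 1.42 (SE 0.59) with overlap that was 0.75 without CREB-H replicate 3. Tmed5 differed by -0.34 (SE 0.11) and Arf5 by 0.30 (SE 0.12), both without overlap. The 11 oligosaccharyltransferase genes, whose products add N-glycans in the ER, had a median of 0.07 (9 positive). Ostc read 7.72, 8.07 and 8.50 against 8.53, 8.53 and 8.81, with no overlap. Its difference of 0.53 (SE 0.21) was 0.34 without GFP replicate 1. Magt1 and Tusc3, alternative oligosaccharyltransferase subunits, differed by 0.22 (SE 0.12) and -0.31 (SE 0.14). Tethers and SNAREs had a median of 0.06 (15 of 22 positive), with Sec22c at 0.76 (SE 0.29; 0.48 without CREB-H replicate 3), Rab1b at 0.23 (SE 0.11) and Rab2a at 0.28 (SE 0.14; 0.16 without that array). Membrane insertion genes had a median of -0.03 (7 of 15 positive), with Emc2 at -0.20 (SE 0.09), Caml at -0.21 (SE 0.14; -0.32 without GFP replicate 1 and -0.08 without GFP replicate 3) and Emc8 at -0.18 (SE 0.16; -0.09 and -0.33 likewise). The 15 measured chaperone and stress genes had a median of 0.03 (9 positive). None lay apart between the groups, beside 6.25% of all genes wholly above and 6.01% wholly below.

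A whole liver holds several cell types, so fewer cells of a type and less RNA per cell cannot be told apart. Of the 6 Kupffer cell markers all had positive differences, of 0.36 to 0.60, with a summed log2 signal of 10.82 to 11.69 with GFP and 11.20 to 12.06 with CREB-H. The 8 stellate cell and fibroblast markers (7 positive) summed to 11.80 to 12.10 and 11.96 to 12.34, the 6 endothelial markers (5 positive) to 11.62 to 12.00 and 11.81 to 12.00, and the 6 hepatocyte markers (4 positive) to 15.73 to 15.88 and 15.83 to 15.89. The 4 B and plasma cell markers (3 positive) summed to 6.83 to 7.05 and 6.91 to 7.44, the 4 cholangiocyte markers (3 positive) to 7.01 to 7.18 and 7.02 to 7.10, and the 5 T cell markers (2 positive) to 7.14 to 7.59 and 7.04 to 7.28. The Kupffer sum was lowest on the Y-signal array within each group. Of single markers, Cd79a (0.57), Ms4a1 (0.38), Krt19 (0.38) and Pdgfrb (0.19) lay wholly above and Sox9 (-0.36) wholly below, beside 6.25% and 6.01% of all genes. Ms4a1 and Krt19 read at most 4.99 and 4.75, near or below the array medians, and the gap of Ms4a1 was 0.001. The other B and plasma cell markers, Mzb1 and Jchain, differed by 0.05 and -0.10 with overlap. All the summed ranges overlapped between the groups. Detection of the markers was not assessed, and their part in the differences of the secretory genes was not tested.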

How the data were processed

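Total RNA from 6 mouse livers was converted to single-stranded cDNA, labelled with biotin and hybridised to 1 array each, per the labels' protocols. The submitters' processing notes name the Transcriptome Analysis Console for the deposited log2 values; no source used here states its version, summarisation, background handling or normalization. That the scale is log2 was read from the range of values, 1.42 to 13.87. Dim probe sets may therefore understate differences, and detection was not assessed.

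The group term was tested by limma (version 3.58.1, under R 4.3.3; lmFit and eBayes, two-sided) on all 41345 probe sets, with Benjamini-Hochberg adjustment over all of them and a threshold of 0.05. Gene symbols came from the platform annotation: 23521 probe sets had 1 symbol, 1814 several and 16010 were not listed. Pairs of genes had exact permutation tests over the 6 arrays. The labels call the samples biological replicates and name no batch. Members, lists, pairs and motifs were chosen with earlier results of these data known. Genes given in full were, in each list, the 3 members with the lowest unadjusted p, members without overlap and a difference of at least 0.3, and 12 fixed members; others described singly were chosen after their values were seen. Of other secretory genes, the 3 with the lowest unadjusted p per list were named. There were 11 alternatives, and each array was left out in turn. Motifs were counted per gene over all of its promoters in the table. Plots used matplotlib 3.10.9 and Python 3.11.15.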

Additional observations from a re-analysis of the deposited data

How the results depend on the processing

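No member passed over all probe sets under any of the 11 alternatives or with 1 array left out; the lowest adjusted p of a member ran from 0.268 to 0.802 over these fits. The number of probe sets that passed was 0 with the replicate number as a block, 1 with a term for Y-linked signal and 0 on the 4 arrays without it, and 0 to 2 with 1 array left out. Members past an unadjusted p of 0.05 with a positive difference numbered 7 with the replicate block, 8 with the Y-linked term and 3 to 7 with 1 array left out (0 to 1 with a negative difference), beside 3.68%, 4.38% and 2.32% to 4.12% of all genes. On the 4 arrays without Y-linked signal, 27 members lay wholly above and 5 wholly below, beside 22.2% and 19.7% of all genes in that smaller comparison; with 1 array left out the counts were 7 to 23 and 2 to 5, beside 10.4% to 14.3% and 9.86% to 12.6%. Same-numbered arrays correlated at 0.08, 0.13 and 0.33 in their deviations from the group means, and arrays with unlike numbers at -0.23 to 0.16. The 0.33 was between the Y-signal arrays. GFP replicate 1 correlated more with CREB-H replicate 2 (0.16) than with CREB-H replicate 1 (0.08), so the numbers were not taken to pair the mice.

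Of the 55 genes recomputed with 1 array left out, the value of 42 shifted more than 1.5 times in some fit. Signs turned in 7. Cope was 0.012 after median centring, 0.031 with array weights, 0.122 without the Y-signal arrays and -0.0924 to 0.0819 with 1 array left out. Arf1 was -0.0024 under quantile normalization, -0.0104 without the Y-signal arrays, -0.00872 over the mean of its probe sets and -0.0474 to 0.0453 with 1 array left out, and Tmed10 was -0.0134 over the mean of its probe sets. With 1 array left out, Copg1 ran from -0.071 to 0.553, Srpr from -0.0383 to 0.175, Sec24a from -0.123 to 0.0248 and Sec23b from -0.0089 to 0.378.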
